A study of Homo sapiens with 34 samples.

Results

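The transcripts of 44 ribosome biogenesis and nucleolar genes were followed in B-ALL cells that lost cyclin D3 or were exposed to a CDK4/6 inhibitor. The 44 genes were taken by name from genes known to act in the making of ribosomes, and the rule uses no measured value, although the list was drawn up with earlier results of these data known. They are 44 of 17587 genes listed in at least 1 of 6 tables, and all 44 are among the 13307 genes listed in every table. The genes comprise 6 that act in RNA polymerase I transcription, 3 core proteins of box C/D particles, 5 of box H/ACA particles, 14 small subunit factors, 12 large subunit factors and 4 abundant or regulatory nucleolar proteins.

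RNA-seq was done on 3 human B-ALL cell lines, BV-173, with the label BCR-ABL, NALM-6, with ETV6-PDGFRB, and RS4;11, with MLL-AF4. Cells of each line carried a lentiviral vector for a scrambled shRNA or an shRNA against *CCND3*, the gene of cyclin D3, and were sorted on day 4. Other cells of each line received DMSO or palbociclib, an inhibitor of the kinases CDK4 and CDK6, at 1 µM for 3 days. The 12 groups held 34 samples, 3 in each group except 2 for *CCND3* shRNA in NALM-6 and 2 for DMSO in BV-173. Each fusion was present in 1 line, so fusion and line cannot be told apart, and neither can the kind of treatment, its duration and the vector.

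Ribosomes are made in the nucleolus. There RNA polymerase I transcribes the long precursor of ribosomal RNA, small nucleolar particles guide its methylation and pseudouridylation, and successive assembly factors fold, cut and pack it with ribosomal proteins into the small and the large subunit. In growing lymphoblasts the nucleoli are large, and many genes of this pathway are known targets of the transcription factor MYC, which binds E-boxes. MYC and the D-type cyclins with their kinases couple growth and cell division in B-lineage cells. The libraries were made from polyadenylated RNA, so ribosomal RNA and its precursors were not measured.

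RefSeq promoters, from 250 bases before to 50 bases after a gene's start (GRCh38.p14), were at hand for 36 of the 44 genes. The E-box CACGTG, which reads the same on both strands, stood in 15 of these 36 genes (41.7%). It stood in 12.4% of 10804 other genes listed in every table and in 8.77% of all 27305 genes with a promoter. RefSeq gives 1 start for 28 of the 36 genes and 2 for the other 8, and a gene was counted if either promoter held the E-box. Counted by promoter, the share was 34.1% of 44 promoters of these genes, 9.15% of those of the other listed genes and 7.26% of all. Sites are shown for the 3 genes with an E-box whose response differed between the treatments by test (*FBL*, *NOP10* and *DDX21*) and for *UTP20*, *LYAR* and *GAR1*, whose levels are also given below. *BRIX1*, the other gene that differed by that test, has a promoter without the E-box. No gene with an E-box passed the test of knockdown or of palbociclib alone. The shares of all genes that passed were 7.21% lower and 4.67% higher with knockdown and 13.7% lower and 11.3% higher with palbociclib. Whether genes with and without an E-box differed was not tested. Each line runs 5′ to 3′ on the strand of the gene, with the E-box in capitals.
FBL, chr19:39846356-39846385, minus strand: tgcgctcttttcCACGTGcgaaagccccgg
NOP10, chr15:34343289-34343318, minus strand: gtagggacactcCACGTGttttagcctgca
NOP10, chr15:34343130-34343159, minus strand: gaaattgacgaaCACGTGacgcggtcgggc
DDX21, chr10:68956604-68956633, plus strand: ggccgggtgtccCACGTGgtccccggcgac
UTP20, chr12:101280083-101280112, plus strand: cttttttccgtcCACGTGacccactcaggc
LYAR, chr4:4290068-4290097, minus strand: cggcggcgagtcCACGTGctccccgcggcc
GAR1, chr4:109815781-109815810, plus strand: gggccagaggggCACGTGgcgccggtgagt

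*FBL*, *NOP10* and *UTP20* have 1 start. The first base of the E-box is base 7 of the *FBL* transcript, counted from 1 at the start, and lies 170 and 11 bases before the start of *NOP10* and 10 before that of *UTP20*. *DDX21*, *LYAR* and *GAR1* have 2 starts, and the E-box belongs to the promoter of the second along the gene, so it lies inside the gene as counted from the first. It lies 31 bases before the second start of *DDX21* (68956647), 64 before that of *LYAR* (4290021) and at base 32 from that of *GAR1* (109815762). The other genes with an E-box were *MRTO4*, *WDR43*, *RRP9*, *GNL3*, *NOP14*, *BYSL*, *NOP2*, *UTP4* and *PES1*. By role, the E-box stood in 7 of 13 small subunit genes and in 0 of 4 genes of RNA polymerase I transcription with a promoter. It also stood in 24 of 75 other ribosome biogenesis factors (32.0%), in 9 of 16 growth genes known to be bound by MYC and in 4 of 26 DNA replication and mitosis genes. These are matches of letters, and no binding was measured here.

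The tables hold 1 level per gene and group, the authors' scaled value, so levels carry no SD or n, and the depth per sample is unknown. *CCND3* was left at 24.2%, 20.7% and 31.1% of its level with scrambled shRNA, in the order NALM-6, RS4;11, BV-173 that is kept for all such values below, and stood at 78%, 81.8% and 76% of DMSO with palbociclib. Over all genes the median log2 ratio of a comparison lay between -0.01 and 0.06. All 11 B-lineage markers were listed in every table, with a summed level of 63300 to 132000. Not all were high in each line. In RS4;11 the level of *MME* was 2.5 to 6.7 and that of *DNTT* 75.2 to 215. In the other lines they were 3723 to 28580 and 5208 to 17640. Of 5 T cell markers 4 were listed in at least 1 table and 1 in every table, with a summed level of 0.40 to 7.44. That of 5 myeloid markers was 92.8 to 1170, that of 2 erythroid markers at most 1.22 and that of 2 stromal or endothelial markers 9.97 to 643.

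Divided by gene length, the 44 genes were highly expressed. In the 6 control groups their median stood at the percentile 85.7 to 91.5 of all genes of the table. *NPM1*, a histone chaperone that shuttles between nucleolus and cytoplasm, was the highest of the 44 in each control group, with a level per kilobase of 19557 to 34145. *NCL* (nucleolin) had 5042 to 14285 and *FBL* 3706 to 7019 per kilobase. *UTP20* was the lowest in 5 control groups, with 43.3 to 146 per kilobase, and *UTP15* in RS4;11 with DMSO, with 102. *NPM1*, *NCL* and *FBL* ranked in this order in all 6 control groups.

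The first question was whether the ribosome biogenesis genes went down with the cell cycle genes. Most of the 44 genes kept their level within 1.5-fold of control in every line, 40 after *CCND3* knockdown and 32 after palbociclib. With knockdown, 1 gene for NALM-6 (2.27%), 3 for RS4;11 (6.82%) and 0 for BV-173 were at least 1.5-fold lower, beside 8.47%, 9.72% and 4.78% of all genes of those tables. None was 1.5-fold higher, beside 7.82%, 9.73% and 3.32% of all genes. Levels are scaled within a comparison, so less RNA per cell and fewer cells cannot be told apart, and a change shared by all genes is not seen.

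With palbociclib, 4 genes for NALM-6 (9.09%), 5 for RS4;11 (11.4%) and 1 for BV-173 (2.27%) were at least 1.5-fold lower. The share of all genes was 14.9%, 15.0% and 11.9%. At least 1.5-fold higher were 2 genes of 44 for NALM-6, 2 for RS4;11 and 3 for BV-173, beside 21.4%, 16.7% and 13.6% of all genes. The shares of the 44 genes were thus below those of all genes in each of the 12 counts, at times by a small margin, as with 11.4% beside 15.0%. The counts share genes and lines, so they are not independent. All genes include many of lower level than the 44, and no share matched for level was taken. *BRIX1* was 1.5-fold lower with palbociclib in all 3 lines and *POLR1C* 1.5-fold higher in all 3.

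**Figure D1:**
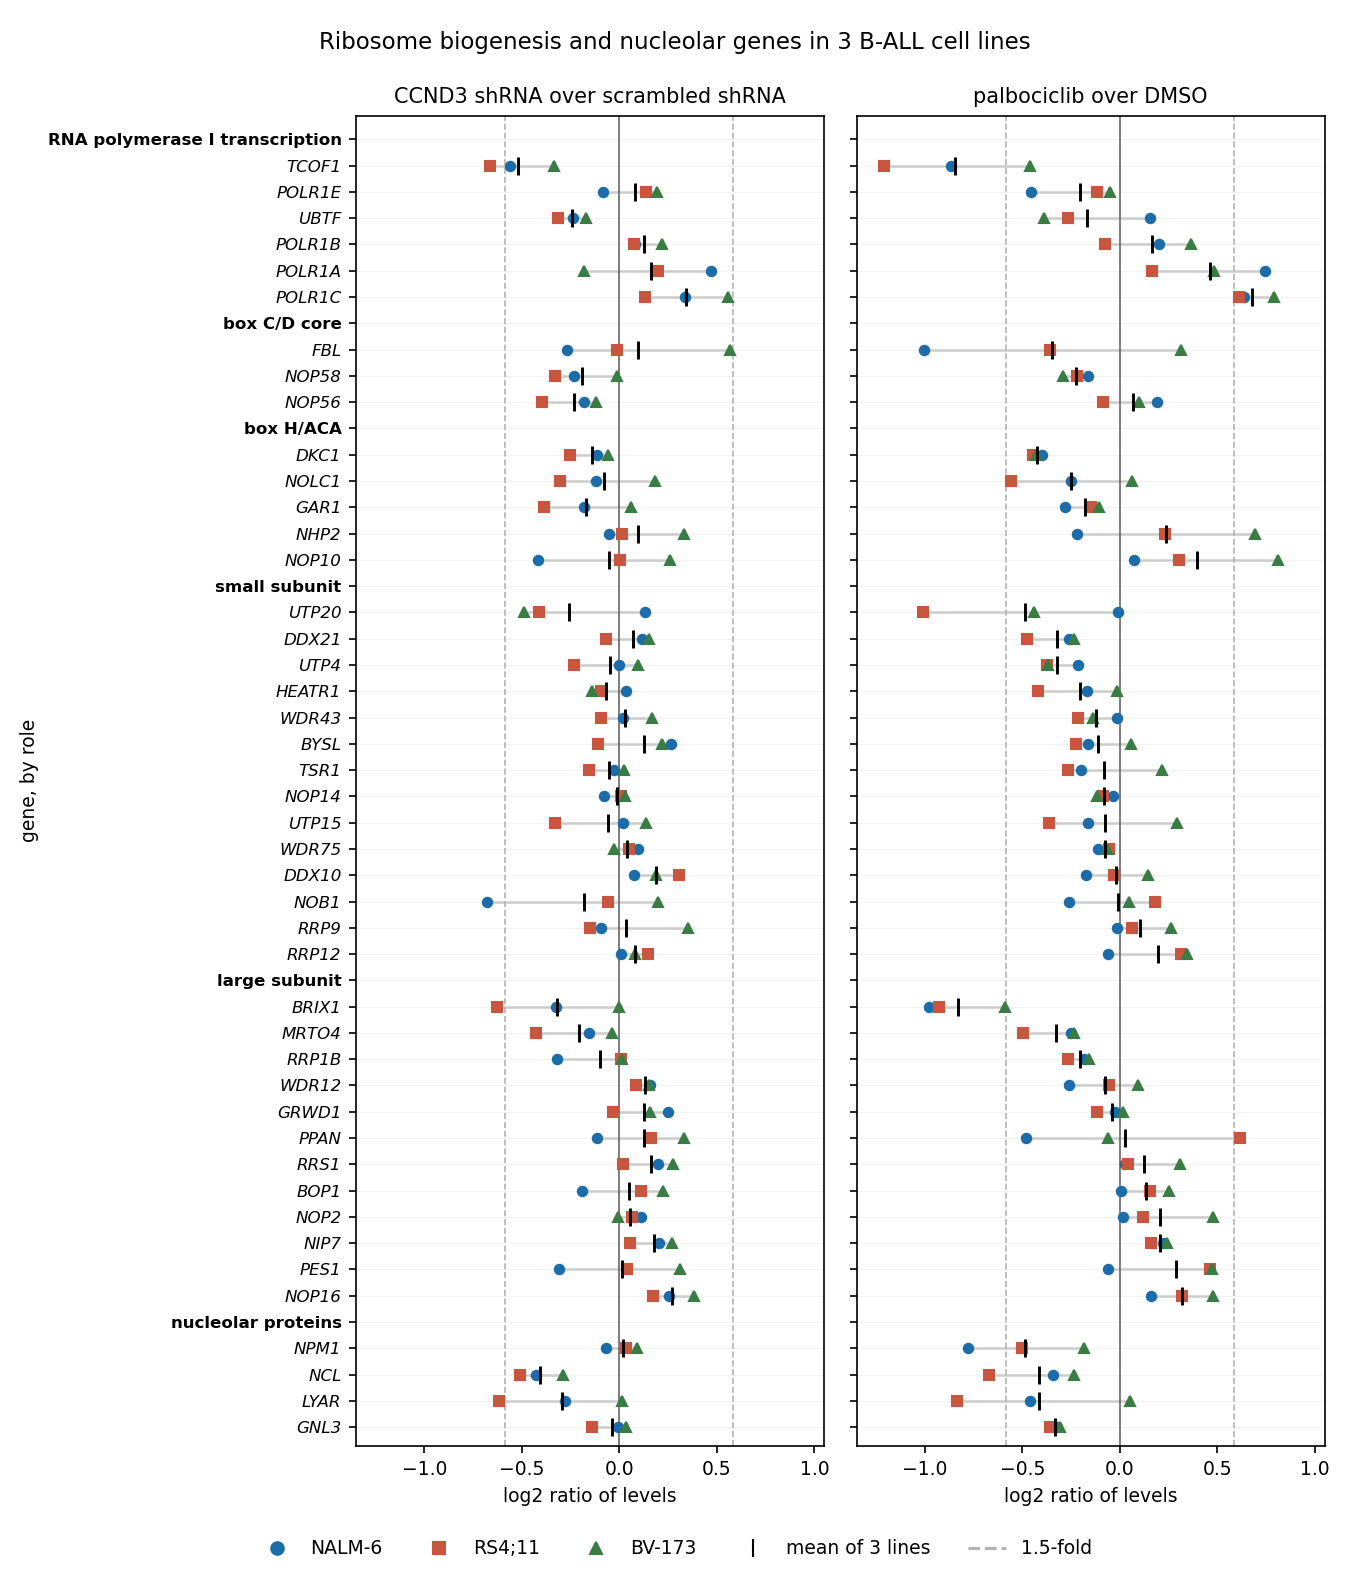
Log2 ratio of levels (x axis) for each of the 44 genes (y axis, by role and then by the mean with palbociclib), with *CCND3* shRNA over scrambled shRNA on the left and palbociclib over DMSO on the right. Circles, squares and triangles are NALM-6, RS4;11 and BV-173, black ticks the mean of the 3 lines and dashed lines a 1.5-fold ratio. With knockdown 4 of 132 points lie beyond the dashed lines, all on the lower side, and with palbociclib 10 lie on the lower and 7 on the higher side.

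The median log2 ratio of the 44 genes with knockdown was close to 0, at -0.06, -0.04 and 0.12. With palbociclib it was -0.17, -0.13 and 0.05. In BV-173 the ratio was below 0 for 12 of 44 genes with knockdown and 20 with palbociclib, while in NALM-6 it was below 0 for 25 and 33, and in RS4;11 for 24 and 30. The 1 level per group gives no test of a difference between lines.

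Genes were then tested over the 3 cell lines with limma, in which the within-line log2 ratio of each line is 1 value and p-values are adjusted over all 13307 genes. With knockdown, 2 of the 44 genes fell at an adjusted p under 0.1, *TCOF1* and *NCL*, and none rose. Of all genes, 7.21% fell and 4.67% rose. At an unadjusted p under 0.05, 3 of the 44 genes were lower and 2 higher, beside 13.0% and 10.9% of all genes. With palbociclib 3 genes fell, *BRIX1*, *TCOF1* and *DKC1*, and 2 rose, *POLR1C* and *POLR1A*, beside 13.7% and 11.3% of all genes.

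The 95% interval of the mean log2 ratio, from the same fit, lay wholly within a 1.5-fold change for 38 of the 44 genes with knockdown and for 25 with palbociclib. For the other 6 and 19 genes a 1.5-fold change was inside the interval or exceeded. These intervals measure the spread between 3 lines, not between samples.

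Among the genes of RNA polymerase I transcription, *TCOF1* fell and the polymerase subunit genes *POLR1C* and *POLR1A* rose with palbociclib. *TCOF1* (gene 6949, chromosome 5, 150357697 to 150400293) encodes treacle, a nucleolar scaffold that brings RNA polymerase I and its factors to ribosomal DNA. The level of *TCOF1* with scrambled and *CCND3* shRNA was 4629.8 and 3143 in NALM-6, 5008 and 3160.3 in RS4;11, and 6396 and 5062 in BV-173. In the DMSO groups of the lines the level was 5001, 6032 and 5768, and in the palbociclib groups 2743, 2605 and 4185. Every treated group was below its control. That is 67.9%, 63.1% and 79.1% of control with knockdown and 54.9%, 43.2% and 72.5% with palbociclib. Its mean log2 ratio was -0.52 ± 0.17 (SD over lines, adjusted p = 0.0334) with knockdown and -0.85 ± 0.37 (SD over lines, adjusted p = 0.0232) with palbociclib in limma. The knockdown call was lost without NALM-6, without RS4;11 and in limma without trend, and the palbociclib call held in each alternative.

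*POLR1C* (gene 9533, chromosome 6, 43517089 to 43562407) encodes a subunit shared by RNA polymerases I and III. The level of *POLR1C* with scrambled and *CCND3* shRNA was 505 and 637 in NALM-6, 462 and 505 in RS4;11, and 692 and 1018 in BV-173. *POLR1C* stood at 446, 463 and 560.4 with DMSO and at 694, 709 and 968 with palbociclib. The treated group was above its control in each of the 6 comparisons, at 126%, 109% and 147% with knockdown and 155%, 153% and 173% with palbociclib. Its mean log2 ratio was 0.68 ± 0.10 (SD over lines, adjusted p = 0.0263) with palbociclib in limma. With knockdown it was 0.34 ± 0.21 (SD over lines, adjusted p = 0.181). Exons of *POLR1C* share 348 bases with *XPO5*, 140 with *LRRC73* and 129 with *YIPF3* on the other strand, and whether reads were counted by strand is not given in the sources used here.

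*POLR1A* (gene 25885, chromosome 2, 86020216 to 86105886) encodes the largest subunit of RNA polymerase I. The level of *POLR1A* with scrambled and *CCND3* shRNA was 2685 and 3720.1 in NALM-6, 2073 and 2375 in RS4;11, and 3127 and 2755 in BV-173. The DMSO groups gave levels of 2053, 2047 and 2398, and the palbociclib groups 3442, 2289.8 and 3349.5. It was higher with palbociclib in each line, and its ratio with knockdown was on both sides of 0. *POLR1A* had a mean log2 ratio of 0.46 ± 0.29 (SD over lines, adjusted p = 0.0827) with palbociclib in limma, a call that was lost without NALM-6, without BV-173 and in limma without trend. *POLR1B*, the second largest subunit, stood at 115%, 94.9% and 129% of control with palbociclib and *POLR1E*, another subunit of the polymerase, at 73%, 92.2% and 96.6%. *UBTF*, which binds and opens ribosomal DNA, had a mean log2 ratio of -0.24 ± 0.072 with knockdown and -0.17 ± 0.28 with palbociclib. None of these 3 genes passed the test with either treatment.

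**Figure D2:**
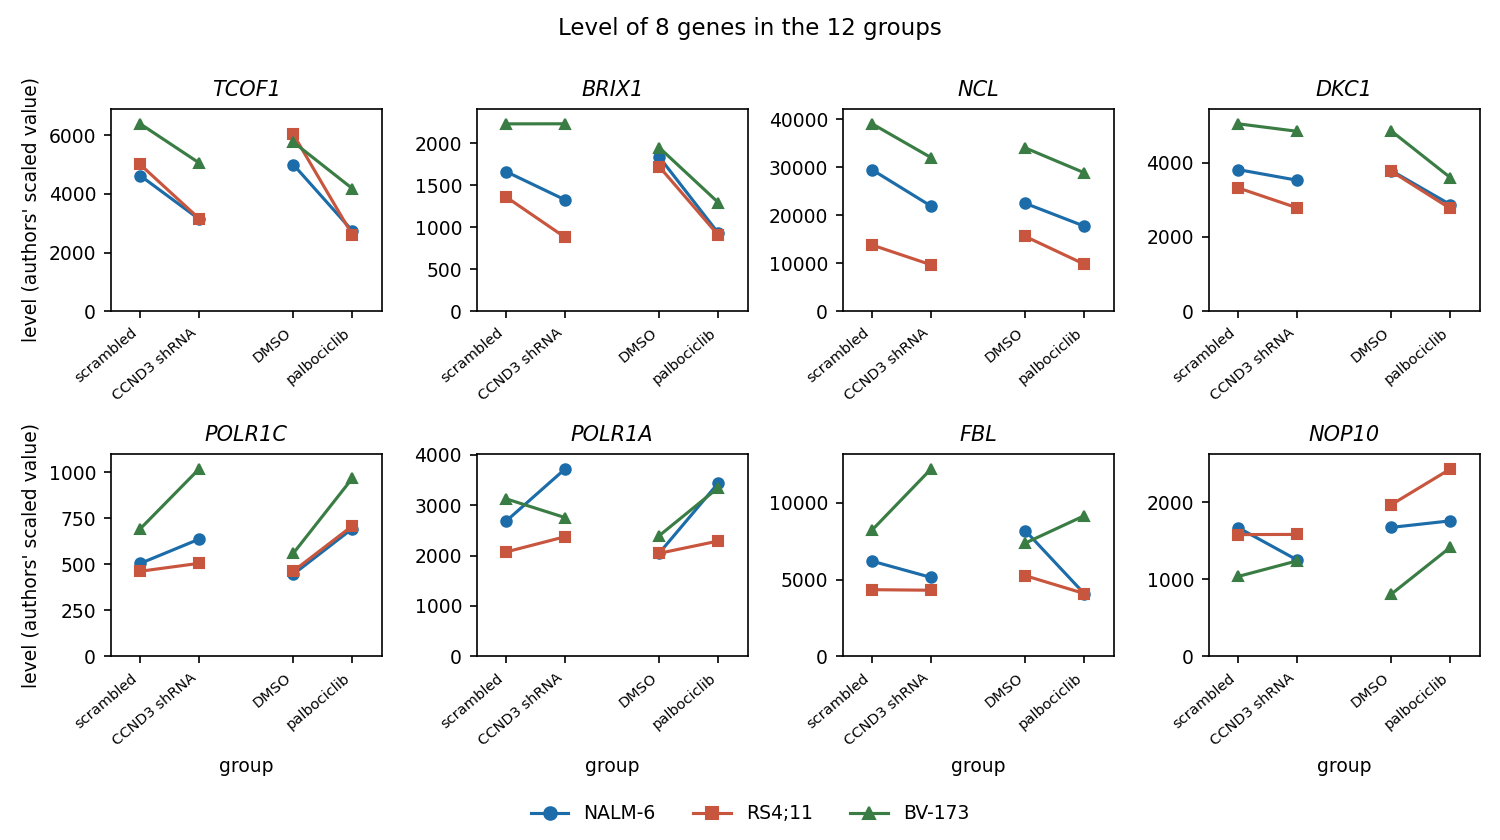
Level of 8 genes (y axis, the authors' scaled value, from 0) in the 4 groups of each line (x axis), with lines joining a control to its treated group, where circles, squares and triangles are NALM-6, RS4;11 and BV-173. Every palbociclib point of *TCOF1*, *BRIX1*, *NCL* and *DKC1* lies below its DMSO point, every palbociclib point of *POLR1C* and *POLR1A* lies above it, and *FBL* with palbociclib was at 4077 in NALM-6 and 9154 in BV-173.

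The core proteins of the box C/D particles, which methylate ribosomal RNA, gave 0 of 3 calls with either treatment. *FBL* (gene 2091, chromosome 19, 39834458 to 39846379) encodes fibrillarin, the methyltransferase. The level of *FBL* with scrambled and *CCND3* shRNA was 6196 and 5137 in NALM-6, 4339 and 4304 in RS4;11, and 8219 and 12196 in BV-173. With DMSO and palbociclib *FBL* stood, in the same order of lines, at 8177 and 4077, 5249 and 4088, and 7375 and 9154. *FBL* was the gene with the widest range between lines under palbociclib, at 49.9%, 77.9% and 124% of control, and with knockdown it stood at 82.9%, 99.2% and 148%. The mean log2 ratio was 0.10 ± 0.43 (SD over lines, adjusted p = 0.77) with knockdown and -0.35 ± 0.66 (SD over lines, adjusted p = 0.361) with palbociclib. The scaffold genes *NOP56* and *NOP58* stayed nearer to control, between 76.1% and 114% in the 6 comparisons.

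Of the box H/ACA genes, whose particles turn uridine into pseudouridine, *DKC1* fell with palbociclib. *DKC1* (gene 1736, chromosome X, 154762864 to 154777689) encodes dyskerin, the pseudouridine synthase, which also belongs to telomerase. The level of *DKC1* with scrambled and *CCND3* shRNA was 3812 and 3526 in NALM-6, 3319 and 2783 in RS4;11, and 5045 and 4843 in BV-173. In the DMSO groups of the lines the level was 3784, 3766 and 4850.1, and in the palbociclib groups 2869.7, 2765 and 3597. With palbociclib it was at 75.8%, 73.4% and 74.2% of control, the closest values between lines among the 44 genes. The mean log2 ratio was -0.43 ± 0.024 (SD over lines, adjusted p = 0.0538) in limma. The call was lost without any 1 of the lines and in limma without trend, and with knockdown the mean was -0.14 ± 0.10 (SD over lines, adjusted p = 0.433).

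*NOP10* (gene 55505, chromosome 15, 34341719 to 34343136), a small protein of the same particle, lay above DMSO with palbociclib in each line. The level of *NOP10* with scrambled and *CCND3* shRNA was 1669 and 1250.0 in NALM-6, 1578 and 1580.3 in RS4;11, and 1035 and 1238 in BV-173. *NOP10* stood at 1671, 1966 and 807 with DMSO and at 1756, 2429 and 1413 with palbociclib. With palbociclib it was at 105%, 124% and 175% of control, but the mean of 0.39 ± 0.38 (SD over lines, adjusted p = 0.16) did not pass. With knockdown its ratio lay on both sides of 0. The partner gene *NHP2* gave 85.9%, 117% and 162% with palbociclib, *NOLC1*, a chaperone of the particles, 83.9%, 67.8% and 104%, and *GAR1* 82.3%, 90.3% and 92.9%. The level of *GAR1* with scrambled and *CCND3* shRNA was 686 and 606 in NALM-6, 515 and 394 in RS4;11, and 898 and 935 in BV-173. The DMSO groups gave levels of 571, 608 and 791, and the palbociclib groups 470.0, 549.6 and 735. With knockdown *GAR1* was at 88.3%, 76.5% and 104% of control. Its mean log2 ratios were -0.17 ± 0.22 with knockdown and -0.18 ± 0.091 with palbociclib, and neither passed (adjusted p = 0.502 and 0.414 in limma). About 28.0% of the exon bases of *NHP2* are shared with *RMND5B* on the other strand.

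None of the 14 small subunit genes passed the test with knockdown or palbociclib. Their median log2 ratio with knockdown was 0.02, -0.09 and 0.12. With palbociclib it was -0.16, -0.22 and 0.01, and 14 of 14 genes were below control for NALM-6, 11 for RS4;11 and 7 for BV-173. Of all genes, 46.5%, 48.3% and 47.1% were below control with palbociclib. The median of the group lay slightly below control with palbociclib in NALM-6 and RS4;11, mostly by small steps. Genes of a line share their libraries, so these counts are descriptions.

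*UTP20* (gene 27340, chromosome 12, 101280105 to 101386618), a large scaffold of the small subunit processome, had the lowest mean of the group with palbociclib. The level of *UTP20* with scrambled and *CCND3* shRNA was 658 and 722 in NALM-6, 854 and 642 in RS4;11, and 1318 and 939 in BV-173. With DMSO and palbociclib *UTP20* stood, in the same order of lines, at 391 and 388, 928 and 460.4, and 1077 and 794. It was at 99.2%, 49.6% and 73.7% of control with palbociclib and 110%, 75.2% and 71.2% with knockdown. NALM-6 stood apart from the other lines here, and the mean with palbociclib of -0.49 ± 0.50 (SD over lines, adjusted p = 0.168 in limma) did not pass. In NALM-6 the 2 controls, scaled separately, differed more in *UTP20* than either treated group did from its control. Relative to the median gene, its log2 ratio of scrambled shRNA over DMSO was 0.67 there, past 1.5-fold, as for 21.4% of all genes in that line. *NOB1*, the nuclease that makes the last cut of the small subunit RNA, was at 62.4%, 96.1% and 115% with knockdown and 83.5%, 113% and 103% with palbociclib. The level of *NOB1* with scrambled and *CCND3* shRNA was 1966 and 1227 in NALM-6, 2528 and 2429 in RS4;11, and 3728 and 4271 in BV-173. In the DMSO groups of the lines the level was 2752, 2970.3 and 3865, and in the palbociclib groups 2298, 3367 and 3993. Its level in NALM-6 with *CCND3* shRNA was the lowest of the 12. *DDX21* encodes an RNA helicase, and its response differed between the treatments by the test given below. The level of *DDX21* with scrambled and *CCND3* shRNA was 11490.3 and 12476 in NALM-6, 6559 and 6265 in RS4;11, and 12454 and 13858 in BV-173. *DDX21* stood at 9627, 7466 and 11956 with DMSO and at 8029, 5358 and 10160.0 with palbociclib. It stood at 109%, 95.5% and 111% with knockdown and 83.4%, 71.8% and 85% with palbociclib. The other 11 genes (*NOP14*, *RRP9*, *WDR43*, *WDR75*, *UTP4*, *UTP15*, *HEATR1*, *BYSL*, *TSR1*, *RRP12* and *DDX10*) stayed within 1.5-fold of control in all 6 comparisons.

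In the large subunit group, 1 of 12 genes passed the test, with palbociclib. *BRIX1* (gene 55299, chromosome 5, 34915711 to 34925996) encodes an assembly factor of the large subunit. The level of *BRIX1* with scrambled and *CCND3* shRNA was 1660.0 and 1324 in NALM-6, 1358 and 879 in RS4;11, and 2228 and 2229 in BV-173. The DMSO groups gave levels of 1832, 1718 and 1944, and the palbociclib groups 928, 904 and 1292. With palbociclib it was at 50.7%, 52.6% and 66.4% of control, and with knockdown at 79.8%, 64.7% and 100%. *BRIX1* had a mean log2 ratio of -0.83 ± 0.21 (SD over lines, adjusted p = 0.0141) with palbociclib in limma, a call that held in each alternative. With knockdown the mean was -0.32 ± 0.31 (SD over lines, adjusted p = 0.21), and the level in BV-173 was 2228.1 with scrambled and 2229.0 with *CCND3* shRNA.

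*NOP16* had the highest mean of this group under both treatments. The level of *NOP16* with scrambled and *CCND3* shRNA was 744 and 887 in NALM-6, 771 and 868 in RS4;11, and 1475 and 1924 in BV-173. With DMSO and palbociclib *NOP16* stood, in the same order of lines, at 683 and 763, 876 and 1093, and 1149 and 1599.9. The treated group was above its control in all 6 comparisons, at 119%, 113% and 130% with knockdown and 112%, 125% and 139% with palbociclib, but neither mean passed (adjusted p = 0.192 and 0.152 in limma). Exons of *NOP16* share 344 bases with *ARL10* and 177 with *HIGD2A* on the other strand. *PPAN* was the large subunit gene with the widest range between lines with palbociclib. The level of *PPAN* with scrambled and *CCND3* shRNA was 874 and 807 in NALM-6, 846 and 946 in RS4;11, and 1509 and 1896 in BV-173. In the DMSO groups of the lines the level was 849, 893 and 1385, and in the palbociclib groups 609, 1367 and 1328. It stood at 71.7%, 153% and 95.9% of DMSO, on both sides of control. Of its exon bases, 47.6% belong also to the read-through gene *PPAN-P2RY11*, so its values are uncertain. The genes of the PeBoW complex, which processes large subunit RNA, gave mean log2 ratios with palbociclib of 0.29 ± 0.30 for *PES1*, 0.14 ± 0.12 for *BOP1* and -0.07 ± 0.18 for *WDR12*. The remaining 6 genes (*NOP2*, *RRP1B*, *RRS1*, *GRWD1*, *NIP7* and *MRTO4*) had means between -0.33 and 0.21 with both treatments.

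Of the nucleolar proteins, *NCL* fell with knockdown. *NCL* (gene 4691, chromosome 2, 231453531 to 231464484) encodes nucleolin, an abundant RNA-binding protein of the nucleolus. The level of *NCL* with scrambled and *CCND3* shRNA was 29452 and 21882 in NALM-6, 13775 and 9660.0 in RS4;11, and 39026 and 31984 in BV-173. *NCL* stood at 22453, 15559 and 33993 with DMSO and at 17708, 9786 and 28826 with palbociclib. It was below control in all 6 comparisons, at 74.3%, 70.1% and 82% with knockdown and 78.9%, 62.9% and 84.8% with palbociclib. The mean log2 ratio was -0.41 ± 0.11 (SD over lines, adjusted p = 0.0712) with knockdown in limma and -0.42 ± 0.22 (SD over lines, adjusted p = 0.151) with palbociclib. The knockdown call was lost without NALM-6, without RS4;11, in limma without trend and with 10 added to each level.

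*NPM1* (gene 4869, chromosome 5, 171387116 to 171410900) was near control with knockdown and lower with palbociclib. The level of *NPM1* with scrambled and *CCND3* shRNA was 30185 and 28819 in NALM-6, 28045 and 28691 in RS4;11, and 48302 and 51491 in BV-173. The DMSO groups gave levels of 35266, 33738 and 48964, and the palbociclib groups 20554, 23803 and 43151. That is 95.5%, 102% and 107% with knockdown and 58.3%, 70.6% and 88.1% with palbociclib. The mean with palbociclib, -0.49 ± 0.30 (SD over lines, adjusted p = 0.161), did not pass. *NPM1* has processed copies in the genome, among which reads may be split. *LYAR*, which promotes ribosomal DNA transcription and precursor processing, was at 82.5%, 65.1% and 101% with knockdown and 72.6%, 55.9% and 104% with palbociclib. The level of *LYAR* with scrambled and *CCND3* shRNA was 2097 and 1731 in NALM-6, 1052 and 685 in RS4;11, and 2249.7 and 2268 in BV-173. With DMSO and palbociclib *LYAR* stood, in the same order of lines, at 2149 and 1561, 1325 and 741, and 1837 and 1905. Its level was below control in NALM-6 and RS4;11 and not in BV-173. *GNL3* (nucleostemin), a GTPase of proliferating cells, gave 99.5%, 90.8% and 102% and 79.9%, 77.9% and 80.7%, and its mean of -0.33 ± 0.026 (SD over lines, adjusted p = 0.104) with palbociclib just missed the threshold. With log2 ratios centred on the median of all genes, *GNL3*, *UTP4* and *MRTO4* passed as well.

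Cyclin D3 is a partner of the kinases that palbociclib inhibits, and the next comparison asked where the ribosome biogenesis genes answered them differently. The difference of the log2 ratios within a line, knockdown less palbociclib, was tested with limma as 1 value per line. At an adjusted p under 0.1 it was above 0 for 3 genes, *BRIX1*, *FBL* and *DDX21*, and below 0 for *NOP10*. Of all genes, 7.16% were above and 4.16% below. Since knockdown lasted a day longer and used a vector, the difference is one of the whole procedures.

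For *BRIX1* the difference was 0.66, 0.30 and 0.59, with a mean of 0.51 ± 0.19 (SD over lines, adjusted p = 0.059). For *FBL* it was 0.73, 0.35 and 0.26, with a mean of 0.45 ± 0.25 (SD over lines, adjusted p = 0.0948). For *DDX21* (gene 9188, chromosome 10, 68956170 to 68985068) it was 0.38, 0.41 and 0.39, with a mean of 0.39 ± 0.017 (SD over lines, adjusted p = 0.088). The lower value was that with palbociclib for each of these 3 genes in each line. For *NOP10* the difference was -0.49, -0.30 and -0.55, with a mean of -0.45 ± 0.13 (SD over lines, adjusted p = 0.0712), and palbociclib gave the higher value. All 4 calls were lost without NALM-6, without BV-173 and in limma without trend, and all but that of *BRIX1* without RS4;11. Those of *FBL* and *DDX21* were also lost with 10 added to each level, and that of *FBL* with 1 added. *NPM1* had a mean difference of 0.51 ± 0.22 (SD over lines, adjusted p = 0.12), *TCOF1* of 0.33 ± 0.21 (SD over lines, adjusted p = 0.16) and *POLR1C* of -0.34 ± 0.13 (SD over lines, adjusted p = 0.187), each with 1 sign in the 3 lines and none past the threshold. *NCL*, with 0.01 ± 0.13 (SD over lines, adjusted p = 0.981), and *GAR1*, with 0.01 ± 0.22 (SD over lines, adjusted p = 0.978), had the smallest mean differences. Their 95% intervals ran from -0.31 to 0.33 and from -0.33 to 0.35.

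**Figure D3:**
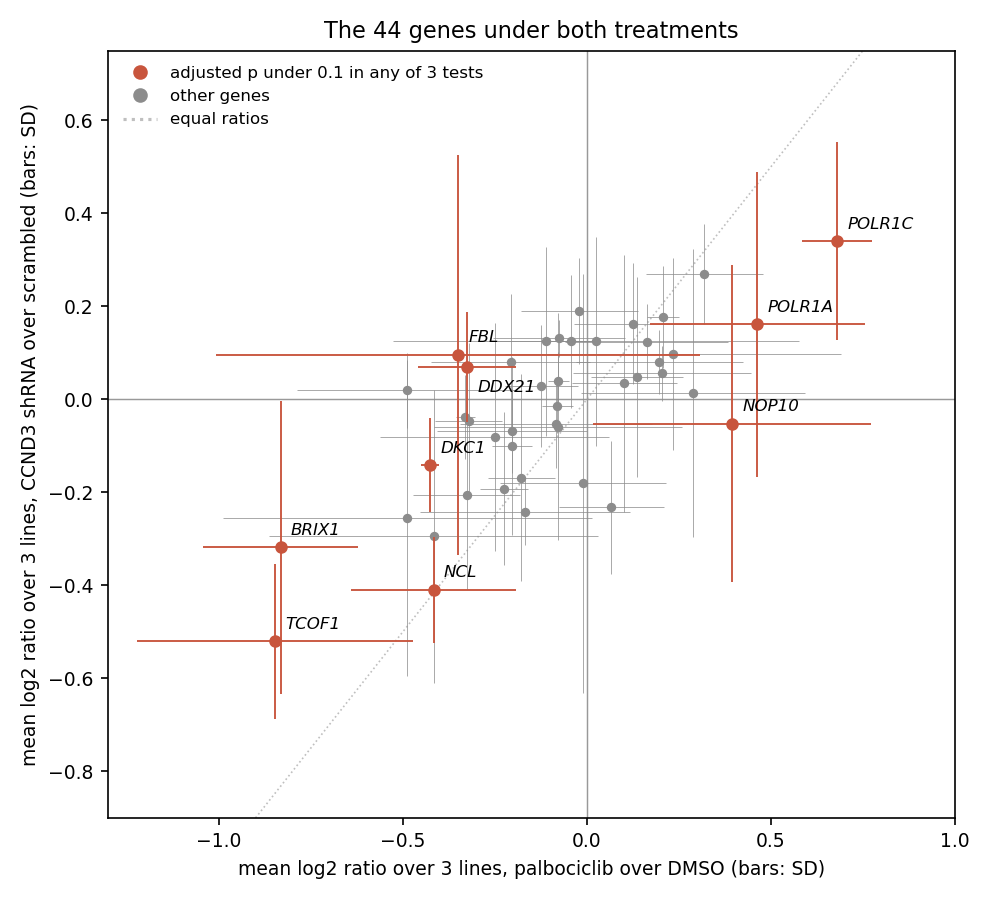
Mean log2 ratio over the 3 lines for each of the 44 genes with palbociclib (x axis) and with *CCND3* knockdown (y axis), where bars are the SD over lines, red points passed limma at an adjusted p under 0.1 with knockdown, with palbociclib or for their difference, and the dotted line marks equal ratios. *BRIX1* and *TCOF1* lie farthest to the left at -0.83 and -0.85 and *POLR1C* farthest to the right at 0.68.

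Across the 44 genes the log2 ratios of the treatments, which have separate controls, had a Pearson r of 0.556, 0.782 and 0.617. Over all 13307 genes r was 0.627, 0.754 and 0.45. The genes of 1 line share their libraries, so r is a description. Between lines, r of the 44 genes lay between 0.174 (NALM-6 and BV-173, knockdown) and 0.729 (RS4;11 and BV-173, palbociclib).

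The context lists show where the 44 genes stood in these cells. Of 32 DNA replication and mitosis genes, 31 fell with knockdown and 32 with palbociclib, with a median of the mean log2 ratios of -1.15 and -3.16. *MKI67*, the marker of cycling cells, was at 34.9%, 24.6% and 52.7% of control with knockdown and 13.1%, 0.7% and 17.1% with palbociclib. Over the 44 genes that median was 0.02 and -0.08, and over all genes 0.0037 and 0.04. Even in RS4;11, where the replication and mitosis genes had a median log2 ratio of -4.90 with palbociclib, the 44 genes had one of -0.13.

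**Figure D4:**
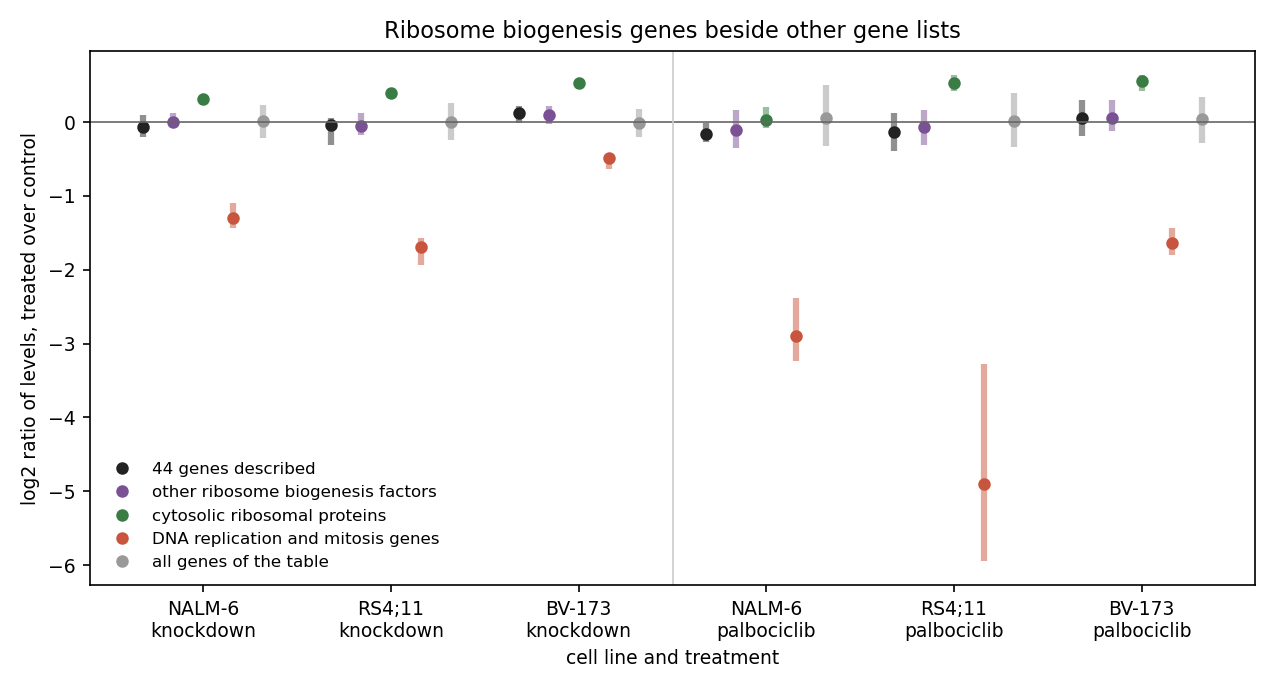
Median (points) and interquartile range (bars) of the log2 ratios of levels (y axis) in the 6 comparisons (x axis) for the 44 genes, other ribosome biogenesis factors, cytosolic ribosomal protein genes, DNA replication and mitosis genes and all genes of the table. The 44 genes lie between -0.17 and 0.12, beside all genes, while the replication and mitosis genes lie between -0.49 and -4.90.

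Of the 85 other ribosome biogenesis factors, 0 fell and 1 rose with knockdown, *NOP53*, with a mean log2 ratio of 0.38 ± 0.015 (SD over lines, adjusted p = 0.0609). Of all genes, 7.21% fell and 4.67% rose with knockdown. With palbociclib 10 of the 85 fell (11.8%) and 7 rose (8.24%), beside 13.7% and 11.3% of all genes. Among the genes of the promoter factor SL1, which brings RNA polymerase I to ribosomal DNA, *TAF1A* (-0.84 ± 0.34 (SD over lines, adjusted p = 0.0473)), *TAF1B* (-0.72 ± 0.078, adjusted p = 0.0429) and *TAF1D* (-0.48 ± 0.13, adjusted p = 0.0603) fell in limma. *TAF1C* rose (0.41 ± 0.086, adjusted p = 0.065). In the small subunit processome *UTP18* fell (-0.72 ± 0.18, adjusted p = 0.0195), while *UTP3* (0.81 ± 0.026, adjusted p = 0.0124) and *PDCD11* (0.61 ± 0.25, adjusted p = 0.0361) rose. Of the 10 genes of the RNA exosome, which trims precursors from their ends, 3 fell and 1 rose with knockdown and 5 fell and 1 rose with palbociclib. *EXOSC8* (-1.66 ± 0.34 (SD over lines, adjusted p = 0.00642)) and *EXOSC9* (-1.38 ± 0.15, adjusted p = 0.00642) led the falls with palbociclib and *EXOSC4* rose (0.95 ± 0.08, adjusted p = 0.0119).

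Many genes of cytosolic ribosomal proteins, which these factors assemble, rose with knockdown. Of 85 tested, 59 rose and 0 fell with knockdown, with a median of the mean log2 ratios of 0.42, and 14 rose and 0 fell with palbociclib, with a median of 0.38. The rises were 69.4% and 16.5% of them, beside 4.67% and 11.3% of all genes. Their median in NALM-6 with palbociclib was 0.03, against 0.53 in RS4;11 and 0.55 in BV-173. Many of these genes have near-identical copies, which makes single values uncertain. Of the 9 RNA polymerase III genes, 1 rose (11.1%) and 0 fell with each treatment, where 7.21% and 13.7% of all genes fell.

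Among the genes of MYC, MAX and their partners, *MXD4* rose and *MXD3* fell with both treatments. The level of *MYC* with scrambled and *CCND3* shRNA was 16043 and 17149 in NALM-6, 7340.0 and 7408 in RS4;11, and 12309 and 18656 in BV-173. In the DMSO groups of the lines the level was 20311, 8353 and 22226, and in the palbociclib groups 21147, 10112 and 29698. *MYC* was thus at or above control in all 6 comparisons, with mean log2 ratios of 0.24 ± 0.32 (SD over lines, adjusted p = 0.341) and 0.25 ± 0.18 (SD over lines, adjusted p = 0.322) that did not pass. *MXD3*, a MAX partner of cycling cells, fell to 46.5%, 58.3% and 71.2% and 48.3%, 54.7% and 35.2% of control (adjusted p = 0.0352 and 0.0147 in limma). *MXD4*, which encodes a MAX partner that opposes MYC at E-boxes, rose to 277%, 216% and 147% with knockdown and 1107%, 451% and 277% with palbociclib (adjusted p = 0.022 and 0.0116 in limma). *MAX* passed with palbociclib (0.48 ± 0.25 (SD over lines, adjusted p = 0.0664)), and *MXD1*, *MXI1*, *MNT* and *MGA* did not pass with either treatment. The 15 genes with a promoter E-box had a median of the mean log2 ratios of -0.01 with knockdown and -0.18 with palbociclib, and the 21 genes without one had 0.04 and -0.04. The 8 genes with no promoter entry had -0.02 and -0.205. Of the 15 genes, 0 passed with knockdown, 0 with palbociclib and 3 for the difference of the treatments. These counts were 1, 4 and 1 for the 21 genes and 1, 1 and 0 for the 8. Over all genes the difference passed above 0 for 7.16% and below 0 for 4.16%. The counts are small, and the sets were not compared by a test. Of the 16 growth genes known to be bound by MYC, 1 fell and 1 rose with knockdown, and 4 fell and 1 rose with palbociclib. Of all genes, 7.21% fell and 4.67% rose with knockdown, and 13.7% fell and 11.3% rose with palbociclib. The median log2 ratio of the 16 genes was -0.21, -0.30 and 0.07 with knockdown and -0.47, -0.38 and 0.02 with palbociclib. In NALM-6 and in RS4;11, 14 of the 16 were below control with each treatment. In BV-173, 5 were below control with knockdown and 8 with palbociclib. Between 46.5% and 51.1% of all genes were below control in the 6 comparisons. Of 9 genes of the p53 and nucleolar stress response, 3 rose with knockdown, and 1 fell and 1 rose with palbociclib.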

How the data were processed

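RNA-seq of 34 samples in 12 groups, 2 or 3 each, was analysed. As in the study's methods and processing notes, the authors mapped reads to hg38 with Bowtie2, estimated levels with RSEM and compared each treated group with its control by DESeq2. The deposited tables hold a signal (scaled level) per gene for each of the 2 groups and the gene's length, a column of another kind, in bases. Levels per sample and depths were not at hand. The authors' fold change and p-value columns were not used, beyond checking that the log2 ratio of the 2 levels equals the fold change. The authors' fit may have shrunk ratios of low genes.

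Log2 ratios (pseudocount 0) within each line were tested over the 3 lines with limma 3.58.1 in R 4.3.3 (eBayes with trend, Benjamini-Hochberg over 13307 genes, called at an adjusted p under 0.1). Knockdown, palbociclib and their difference gave 3 tests. The limma step was also run on simulated data with known shifts, whose outcome is not given, and no result here rests on that run. The p-values measure the spread between lines. Levels of knockdown and palbociclib tables were scaled separately. A fold of 1.5 in 1 comparison is a description with no test. Levels in every group are given for genes with the lowest or highest means, the largest or smallest difference between treatments and the widest range between lines. *DKC1* and *DDX21* fall outside this rule and are given because they passed a test. The genes, lists and tests were chosen with earlier results of these data known. Promoters are from RefSeq and exon overlaps from GENCODE. *TCOF1*, *RRP1B*, *RRP12*, *POLR1E*, *NOP58*, *NOLC1*, *BOP1* and *RRS1* had no promoter entry. Alternatives were centred ratios, values added to the levels, filters on low levels, other thresholds, limma without trend and each line left out.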

Additional observations from a re-analysis of the deposited data

How the results depend on the processing

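No paired analysis was possible because the tables hold 1 value per group, and for the same reason no sample could be left out. The main counts of the 44 genes were 2 lower and 0 higher with knockdown, 3 lower and 2 higher with palbociclib, and 1 below and 3 above 0 for the difference. With knockdown the number lower was 1 with 10 added to each level or at an adjusted p under 0.05. It was 0 in limma without trend, without NALM-6, without RS4;11 or with a mean fold of at least 1.5 as well, and 4 without BV-173 (*TCOF1*, *NCL*, *BRIX1* and *LYAR*). With palbociclib the number lower was 6 with centred ratios and 5 at a mean level of at least 100. The number higher was 1 in limma without trend, without NALM-6, without BV-173, at an adjusted p under 0.05 and with the fold. For the difference, 0 genes were left below and 0 above in limma without trend, without NALM-6, without BV-173, at an adjusted p under 0.05 and with the fold. Without RS4;11, 0 were left below and 1 above, and with 10 added to each level 1 was left above. Of 132 pairs of gene and line, the fold limit between 1 and 1.5 that was tried was passed by 17 lower and 8 higher with knockdown and by 31 lower and 14 higher with palbociclib. A fold of 2 was passed by 0 lower with knockdown and by 3 lower and 0 higher with palbociclib. All other counts stayed within 1.5 times the main value, and the medians moved by less than their SD over lines. *BRIX1*, *TCOF1* and *POLR1C* passed with palbociclib under each of 10 alternatives, with adjusted p of 0.0127 to 0.0669, 0.0142 to 0.0886 and 0.0235 to 0.086. No called gene changed direction under any of these alternatives. Depth is unknown, so its limit on these values cannot be given.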
